A study of Mus musculus with 9 samples.

Results

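Chromatin bound by Stat5a after 2 rounds of Th2 differentiation was compared with that at 13 h, in CD4+ T cells of the mouse. Both Stat5a libraries were read beside the IgG library of the same stage, in which chromatin was precipitated with an antibody that has no target of its own. The regions were the union of the 6 peak lists the authors deposited for Stat5a and Stat5b at 8 h, 13 h and 2 rounds. Overlapping peaks were joined and mitochondrial DNA was left out, which gave 43766 regions covering 24.02 Mb, with a median width of 488 bp. The comparison rests on 4 of the 9 libraries of the series. Each antibody was sequenced at 8 h, 13 h and after 2 rounds, with 1 library per antibody and stage and 22 lanes in all per the labels. No genotype, strain, age or dose is given in the labels, and culture and treatment are described there only by reference to a publication, so what a round lasted is not given in the sources used here. The files hold reads of precipitated DNA, so the identity of the cells was not checked.

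Stat5a is a transcription factor that is phosphorylated when interleukin 2 or a related cytokine binds its receptor. It then pairs with itself or with its close relative Stat5b, enters the nucleus and binds DNA at an inverted repeat of TTC and GAA. In CD4+ T cells it is known for acting on genes of cytokine feedback and survival. During Th2 differentiation, by which naive T cells become producers of interleukin 4, 5 and 13, it is known for acting on the Th2 cytokine genes and on the interleukin 4 receptor.

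The Stat5 motif is shown first at Cish, Bcl6 and Il7r, known Stat5 targets that recur in the results and whose windows held it. The sequences are RefSeq promoter windows of build GRCm38.p6, which hold 250 bases before and 50 bases after a gene's start. The peaks are in the older build mm8, so the position of the peaks within or beside these windows was not determined. Of 31 genes listed as Stat5 targets or Th2 genes, 23 had at least 1 window and 8 of these genes held the motif TTCNNNGAA, which reads the same on both strands. Counted by window this was 9 of 31 windows (29.0%), against 8.30% of all 32851 windows. Cish, a feedback inhibitor of cytokine receptors, had 2 copies, which begin at positions 1 and 12 counted from the start. Bcl6, a transcriptional repressor, had 3 copies in 1 window, at -168, -122 and -88, and 1 copy in another, at -118. Windows with 3 or more copies made up 0.0335% of all windows. A match describes these letters and not binding. Il7r, the interleukin 7 receptor, had 1 copy, at -142. Other genes whose loci recur below held no copy in their windows, namely Ctla4, Socs1, Il4ra, Il5 and Il13. Il4 held 1 copy in 1 of its windows, and Socs2 and Il10 had no window. The stretches below are printed on the strand of the gene, with the motif in capitals, from chr9:107296654-107296683 (plus strand, Cish), chr16:23981284-23981533 and chr16:23988853-23989102 (minus strand, Bcl6) and chr15:9529877-9530126 (minus strand, Il7r).
Cish: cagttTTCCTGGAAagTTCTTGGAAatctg
Bcl6, first window: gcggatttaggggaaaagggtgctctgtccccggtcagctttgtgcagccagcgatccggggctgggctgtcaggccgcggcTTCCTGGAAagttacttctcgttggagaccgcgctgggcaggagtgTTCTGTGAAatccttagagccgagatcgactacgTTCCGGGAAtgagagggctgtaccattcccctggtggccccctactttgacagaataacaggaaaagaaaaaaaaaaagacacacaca
Bcl6, other window: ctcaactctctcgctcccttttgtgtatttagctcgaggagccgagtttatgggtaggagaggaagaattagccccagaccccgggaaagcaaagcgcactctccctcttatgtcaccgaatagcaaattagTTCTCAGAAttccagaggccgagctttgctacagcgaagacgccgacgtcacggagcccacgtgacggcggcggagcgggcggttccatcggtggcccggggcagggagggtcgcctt
Il7r: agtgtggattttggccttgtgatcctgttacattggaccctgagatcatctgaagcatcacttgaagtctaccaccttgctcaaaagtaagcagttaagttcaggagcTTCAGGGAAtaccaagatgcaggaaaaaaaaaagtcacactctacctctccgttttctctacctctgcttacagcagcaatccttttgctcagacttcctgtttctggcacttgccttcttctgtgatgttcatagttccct

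The Stat5a 13 h library held 8311042 reads at 5220691 distinct starts (positions and strands where at least 1 read begins), and the 2 rounds library 6645271 reads at 4050353 distinct starts. The IgG libraries held 7525521 and 5787254 reads. A level is given below as RPM, the reads whose 5′ end falls in a region per 1000000 reads of the library, or as SPM, the distinct starts in a region per 1000000 distinct starts of the library, in which each start and strand counts 1 time however many reads share it. Every ratio is 2 rounds over 13 h and carries an exact conditional (Clopper-Pearson) 95% interval. With 1 library per antibody and stage there is no replicate error. No p-value can be given, the intervals cover counting error only, and reads that share a start need not be independent molecules. A region was called higher where the whole interval lay above 2 and lower where it lay below 0.5.

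Stat5a signal rose at many regions between 13 h and 2 rounds, and the extent of its fall depended on how repeated reads were counted. With all reads, 3359 regions were higher (7.67%) and 1739 lower (3.97%). With distinct starts, 1120 were higher (2.56%) and 26 lower (0.0594%). Both countings called 1093 regions higher (2.5%) and 25 lower (0.0571%), and these are called the higher and the lower regions from here on. The IgG libraries of the same stages, read by the same rule, gave 282 higher (0.644%) and 40 lower (0.0914%) with all reads, and 26 higher (0.0594%) and 2 lower (0.00457%) with distinct starts. The number of IgG calls is limited by the low IgG counts. Over the 35709 regions with reads in both Stat5a libraries the median ratio was 1.25, or 0.32 on the log2 scale. The IgG median was 1.30 over its 27867 such regions. Each median equals the ratio of the library totals, 13 h over 2 rounds. This is the ratio of a region with the same number of reads in both libraries. At such low counts the medians follow from the totals, and they do not compare the shift of Stat5a with that of IgG. When the Stat5a median was set to 1, all reads gave 2120 higher and 2614 lower regions. Higher calls were then 44.8% of all calls, against 65.9% without that step. Distinct starts with their own median set to 1 gave 536 higher and 66 lower.

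**Figure D1:**
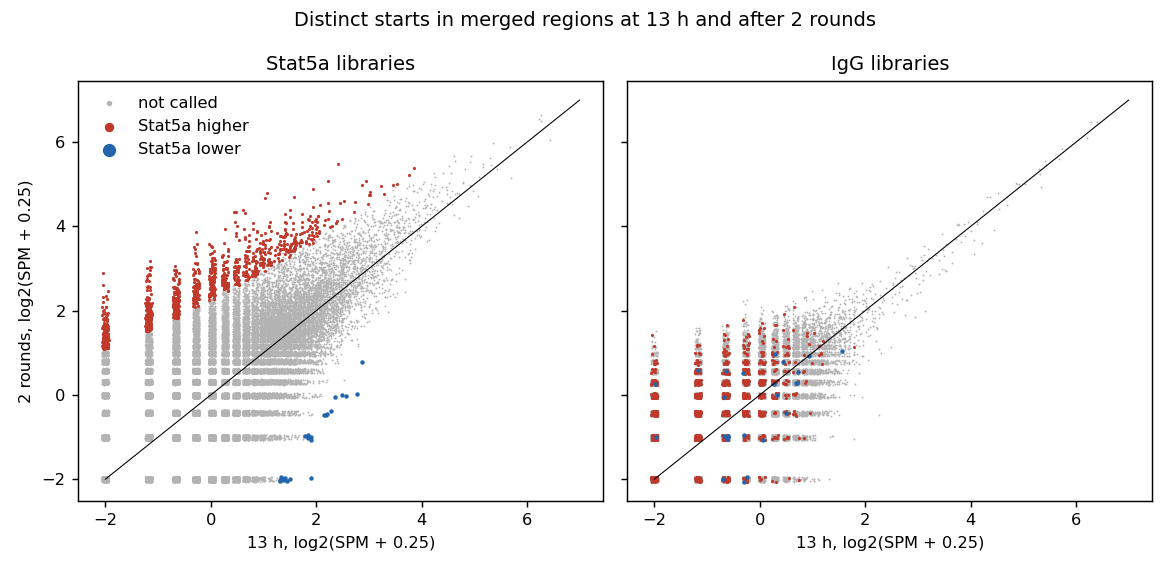
Each point is 1 of 43766 merged regions, placed by its SPM at 13 h (x axis) and after 2 rounds (y axis), as log2 of the value plus 0.25, with a small seeded scatter to separate ties. The left panel shows Stat5a and the right IgG, the 1093 higher regions are red, the 25 lower regions are blue, and the line marks equal levels. The red points lie above the line for Stat5a by the rule that chose them.

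In the 1093 higher regions Stat5a was low at 8 h and 13 h. Its median was 0.975 SPM at 8 h, 0.575 at 13 h and 5.43 after 2 rounds. The IgG medians at those stages were 0.234, 0.388 and 0.735. The rise from 13 h to 2 rounds is what chose these regions, and the 8 h level did not enter the calling rule. The 8 h peak lists did help define the regions. Summed over them, Stat5a SPM was 2.25 times that of IgG at 13 h (interval 2.15 to 2.36) and 9.40 times after 2 rounds (9.07 to 9.75). Of the 1093 regions, 871 had a Stat5a peak after 2 rounds and none at 13 h, 173 had one at both stages and 49 at neither. A Stat5a peak at 8 h was present in 100 of them (9.15%), near the 11.9% of all regions. The authors called these peaks in the same libraries, so their lists are not independent of the counts.

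Stat5b, the sister protein precipitated with another antibody in separate libraries, gave counts that did not enter the calling rule. Its peak lists did help define the regions, so the shares over all regions given here are shaped by them. Its median in the higher regions was 0.393 SPM at 8 h, 0.882 at 13 h and 8.11 after 2 rounds. By distinct starts 784 of the 1093 (71.7%) were called higher for Stat5b, against 14.8% of all regions, and none was called lower, against 0.0663% of all regions. With all reads 895 were called higher (81.9%), against 25.1% of all regions, and none lower, against 0.637%. The Stat5b ratio was above 1 in 1084 of them (99.2%), against 81.0% of all regions. The authors' Stat5b list of 2 rounds held a peak in 1008 (92.2%), against 72.2% of all regions. In the regions with a Stat5a peak at both stages that list held a peak in 97.3%. There the Stat5b ratio was above 1 in 92.6%, and 24.4% were called higher for Stat5b by distinct starts. In the regions with a Stat5a peak after 2 rounds alone these shares were 78.6%, 92.2% and 33.8%. A Stat5b peak was thus not particular to the higher regions. Over all regions Stat5b was called higher at 6258 with both countings (14.3%), with 26 lower (0.0594%).

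**Figure D2:**
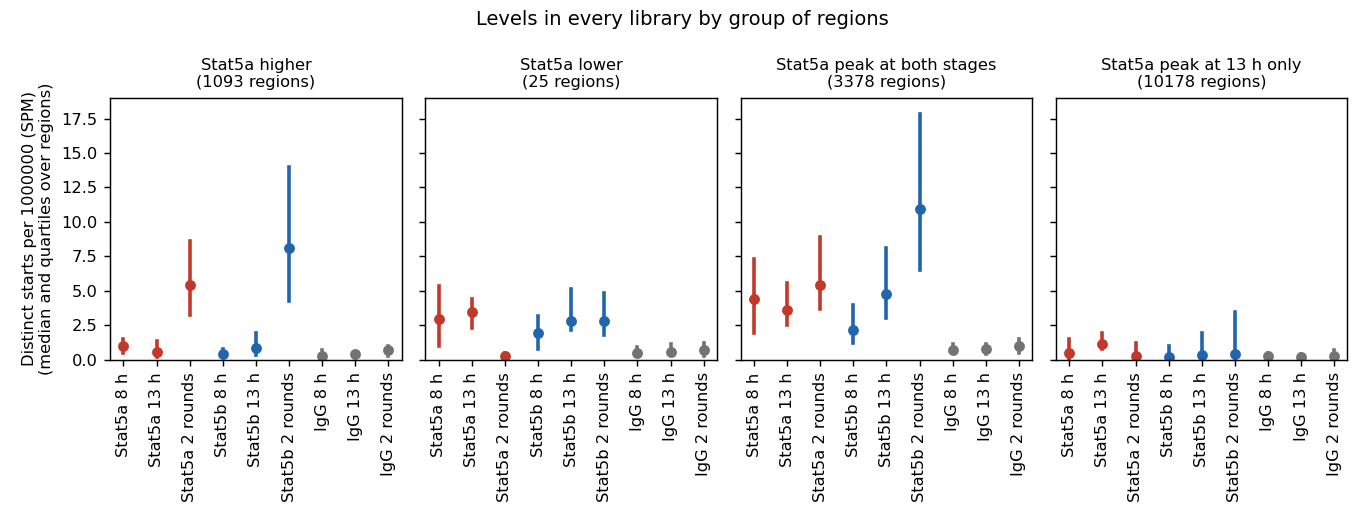
The points are medians over regions and the bars run from the lower to the upper quartile, in SPM, for each of the 9 libraries (x axis) and 4 groups of regions (panels). In the higher regions the medians of Stat5a and Stat5b after 2 rounds are 5.43 and 8.11, with every other library under 1, and in the lower regions Stat5a after 2 rounds is the lowest of the 9 libraries, at 0.247.

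The 10 higher regions ranked first by the lower limit of the distinct-start ratio, among 620 with at least 20 starts and no dominating start, were all also called higher for Stat5b. Their Stat5a level at 13 h lay between 0 and 1.68 RPM and after 2 rounds between 4.82 and 34.5 RPM. IgG in these regions stayed between 0 and 1.73 RPM at both stages. The first, chr14:77514829-77515319, held 0 Stat5a reads at 13 h and 38 reads at 29 starts after 2 rounds. With 13 h set at a floor of 3 counts this is 12.5-fold by distinct starts. The lower limit of the interval, which uses no floor, was 9.50. Stat5b had 1 and 21 starts there. At chr14:67907799-67908973 Stat5a went from 6 reads at 3 starts to 91 reads at 56 starts, a ratio of 24.1 (7.82 to 120), and Stat5b from 4 to 166 starts. The region chr15:58947950-58948767 reached the highest Stat5a level of the 10, from 11 reads at 10 starts to 229 reads at 109 starts, a ratio of 14.0 (7.36 to 30.1). Its Stat5b ratio was 27.6 (12.4 to 76.4), and IgG held 0 and 4 reads. At chr15:25387719-25389461 Stat5a rose from 9 to 105 starts, a ratio of 15.04 (7.63 to 33.8), with Stat5b at 12 and 283 starts. The other members were chr2:38945860-38946590 and chr2:80546369-80547451, with a Stat5a ratio of 17.6 (7.76 to 49.4) each, chr4:95199551-95200746 with 15.7 (7.28 to 40.1), chr16:50708055-50708662 with 1 start at 13 h and 34 after 2 rounds, and chr10:44621265-44621980 and chr3:79536338-79537129, both with 0 starts at 13 h and with 23 and 22 after 2 rounds. Of these 10 regions, 1 had a Stat5a peak at 8 h and 3 a Stat5b peak at 13 h. With 25 bp reads alone 3 of the 10 were no longer called, chr14:67907799-67908973 with 3.41 (1.18 to 11.1), chr2:38945860-38946590 with 1.36 (0.468 to 3.84) and chr16:50708055-50708662 with 1.70 (0.124 to 23.5). With 24 bp reads alone all 10 were called.

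Most higher regions stood alone, and some lay close together. With gaps under 50 kb joined, the 1093 regions formed 913 groups, of which 778 held 1 region, 101 held 2 and 34 held 3 or more. The group with the most members ran from chr11:53435641-53495240, where 6 of 16 regions were higher. From knowledge of the mouse genome, and not from the files, this stretch lies in the Th2 cytokine cluster, which holds Il4, Il13, Rad50 and Il5. Gene positions in mm8 were not used here, so such names mark the locus and not the nearest gene, and these groups were picked after their values were seen. Summed over the 6 regions Stat5a was 17.3 RPM at 8 h, 16.8 at 13 h and 81.9 after 2 rounds. IgG was 3.68, 3.72 and 10.4, so IgG was also higher at the late stage, and Stat5b was 8.15, 28.1 and 164. The largest change by reads was at chr11:53493981-53495240, where Stat5a went from 36 to 135 reads, or 4.33 to 20.3 RPM, a distinct-start ratio of 4.75 (2.83 to 8.35). There Stat5b gave 8.46 (5.68 to 13.0). At chr11:53435641-53437138 Stat5a went from 30 to 126 reads (ratio of distinct starts 5.56, 3.19 to 10.3) and at chr11:53460363-53461753 from 45 to 125 reads (3.403, 2.12 to 5.63). Both had a Stat5a peak at 8 h and at 13 h already. The other 3, chr11:53439773-53440336, chr11:53448557-53449760 and chr11:53458414-53459226, had 1, 25 and 3 reads at 13 h and 21, 93 and 44 after 2 rounds, and had no Stat5a peak at 13 h.

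Similar groups lay on other chromosomes. At chr1:132816792-132857442, in the neighbourhood of Il10 and its related cytokine genes by the same background knowledge, 5 of 12 regions were higher and their summed Stat5a level was 7.58 RPM at 13 h and 37.9 after 2 rounds. IgG there was 2.66 and 5.18 RPM. Before it on the same chromosome, at chr1:132721865-132732644, all 3 regions were higher, with 7.82 RPM at 13 h and 42.0 after 2 rounds and IgG at 3.19 and 3.28. The member chr1:132721865-132722635 went from 1 to 48 Stat5a reads, and its Stat5b ratio was 40.8 (10.9 to 344). At chr15:9506633-9547506, the neighbourhood of Il7r, 3 of 13 regions were higher. The largest, chr15:9506633-9508244, was in all 6 peak lists and went from 118 to 339 reads, or 14.2 to 51.0 RPM, against 1.33 and 3.11 RPM of IgG. By distinct starts the ratio reached 2.75 (2.08 to 3.65) with Stat5a and 2.93 (2.31 to 3.73) with Stat5b. Groups without a locus name here were chr2:43964386-43989252, where 5 of 6 regions went from 15.6 to 92.7 RPM with IgG at 4.12 and 3.63, and chr10:92081178-92148106, where 4 of 8 went from 8.54 to 87.0 RPM with IgG at 2.39 and 7.26. In the latter, chr10:92081178-92082125 alone went from 36 to 409 reads, a distinct-start ratio of 8.21 (5.45 to 12.8).

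The regions with the most Stat5a signal were ranked without regard to the change. The 10 with the most Stat5a SPM above IgG, averaged over both stages, were all in all 6 peak lists, and their distinct-start ratios lay between 1.29 and 1.97, at or above the median of 1.29 over all regions with reads at both stages. With distinct starts all 10 intervals lay above 1 and none lay wholly above 2, and with all reads 1 of the 10 was called higher. This moved with the read length. With 24 bp reads alone 5 of the 10 intervals lay wholly above 2 (3 by distinct starts), and with 25 bp reads alone none did (1 by distinct starts). The strongest, chr9:107153387-107156833, lies at Cish by the same background knowledge. It held 296 Stat5a reads (94.6 RPM) at 8 h, 730 (87.8 RPM) at 13 h and 925 (139 RPM) after 2 rounds, against 63 and 21 IgG reads at the last 2 stages. Its ratio was 1.58 (1.44 to 1.75) with all reads and 1.39 (1.21 to 1.60) with distinct starts. The neighbouring chr9:107165101-107168374 and chr9:107170141-107172446 gave 1.29 (1.04 to 1.59) and 1.499 (1.19 to 1.89) with distinct starts. The first of these held 183 starts in each library, so its 1.29 is the ratio of the library totals. An interval above 1 therefore does not by itself mean more starts. This first region spanned 1 with distinct starts of 25 bp reads, at 1.204 (0.889 to 1.62). Next in rank was chr16:23902784-23905036, at Bcl6, with 438 reads (52.7 RPM) at 13 h and 526 (79.2 RPM) after 2 rounds, a distinct-start ratio of 1.54 (1.28 to 1.84).

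A further 3 regions of this set lie at genes known to act in T cells, again named from background. The region chr1:60990082-60991533, in the interval of Ctla4, an inhibitory receptor, and Icos, a costimulatory one, went from 277 to 445 reads (33.3 to 67.0 RPM). Its distinct-start ratio was 1.76 (1.42 to 2.18), with all 24 bp reads 4.68 (3.37 to 6.65) and with all 25 bp reads 1.56 (1.29 to 1.88), while its level at 8 h had been 73.8 RPM, above that of both later stages. The region chr10:94844625-94848058, at Socs2, a feedback inhibitor of cytokine signalling, went from 201 to 322 reads (24.2 to 48.5 RPM), with a ratio of 1.97 (1.57 to 2.48). The Stat5b ratio there was 3.37 (2.84 to 4.01). Over all regions the median distinct-start ratio was 2.68 for Stat5b and 1.19 for Stat5a, and whether the antibodies differ at Socs2 beyond that was not tested. In the interval of Socs1 and Clec16a, chr16:10552338-10554126 had a Stat5a ratio of 1.87 (1.49 to 2.35) and a Stat5b ratio of 2.64 (2.23 to 3.14). Among the rest, chr8:84398358-84399721 gave 1.54 (1.24 to 1.91) for Stat5a and 1.10 (0.893 to 1.35) for Stat5b. The region called higher with all reads was chr6:124715655-124716745, from 218 to 436 reads (26.2 to 65.6 RPM), with 2.50 (2.12 to 2.96) by all reads and 1.87 (1.48 to 2.39) by distinct starts.

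**Figure D3:**
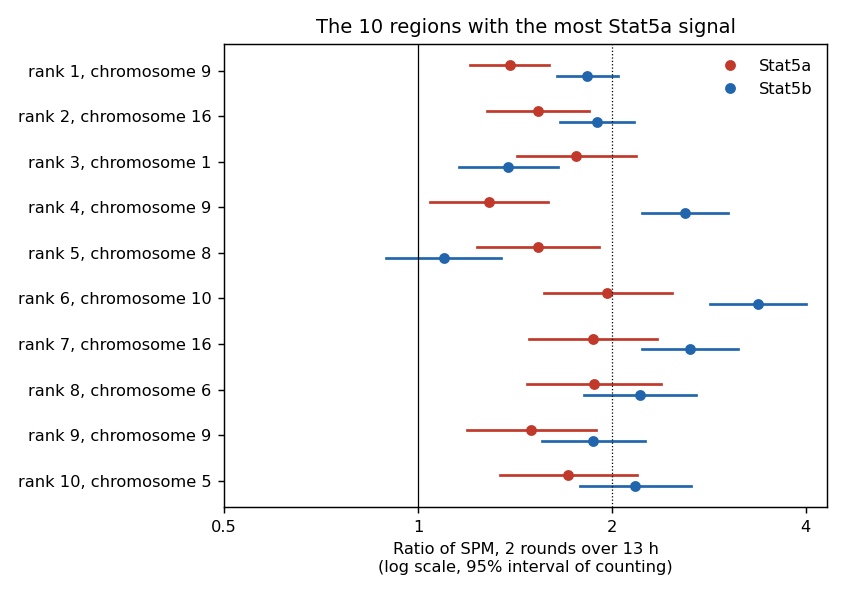
The points are ratios of SPM, 2 rounds over 13 h, on a log2-spaced x axis, and the lines are their 95% intervals of counting, for Stat5a (red) and Stat5b (blue) in the 10 regions with the most Stat5a signal (rows, by rank). All Stat5a intervals lie above 1 (solid line), and the Stat5a points lie between 1.29 and 1.97, left of the dotted line at 2.

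The lower regions were few. In the 25, the median Stat5a level was 2.93 SPM at 8 h, 3.45 at 13 h and 0.247 after 2 rounds, and IgG was 0.468, 0.581 and 0.735. Stat5b in the same regions was 1.97, 2.82 and 2.84. The calling rule did not use it, though its peak lists helped define the regions. By distinct starts 1 region was called lower and 0 higher for Stat5b. A Stat5a peak at 8 h was present in 14 of the 25 (56.0%, against 11.9% of all regions). It was present in 58.3% of the regions with a Stat5a peak at both stages and in 8.47% of those of 13 h alone. That share was thus not particular to the lower regions. A Stat5b peak after 2 rounds was present in 16 of the 25, against 72.2% of all regions. Only 9 had at least 20 distinct starts at 13 h. The first, chr14:121108401-121109439, held 29 Stat5a reads at 8 h, 59 reads at 35 starts at 13 h and 3 reads at 3 starts after 2 rounds, a ratio of 0.110 (0.0217 to 0.350). IgG held 12 and 6 reads at the last 2 stages, so the late Stat5a level of 0.451 RPM was below the IgG level of 1.04 RPM. Stat5b went from 41 to 24 starts there, 0.673 (0.389 to 1.14). At chr3:131189031-131190543 Stat5a held 45, 53 and 3 reads in the order of the stages, a distinct-start ratio of 0.125 (0.0244 to 0.400), and Stat5b gave 0.4999 (0.314 to 0.778). At chr11:4491406-4491795 Stat5a went from 41 to 4 reads, 0.112 (0.0128 to 0.454), and Stat5b gave 0.357 (0.149 to 0.774). The region chr4:15199867-15200844 fell for both proteins, with 0.204 (0.0703 to 0.485) for Stat5a and 0.265 (0.141 to 0.470) for Stat5b. In the other 5 of the 9 the Stat5a ratio lay between 0.107 and 0.149.

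A further 1714 regions were lower with all reads alone. That rule itself favours regions with many reads per start and few starts at 13 h, so the following values describe them and support nothing. At 13 h their median was 13 reads at 5 distinct starts, and they held 2.90 reads per start, against 1.85 over all regions. After 2 rounds 90.3% of them held no Stat5a read. A Stat5b peak at 13 h was present in 112 of them (6.53%), against 27.8% of all regions. Summed Stat5b starts were 2.66 times IgG at 13 h (2.50 to 2.84) and 2.66 times after 2 rounds (2.50 to 2.83). At 5 starts no distinct-start ratio can lie wholly below 0.5, so the depth does not show whether Stat5a fell in these regions.

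The authors' lists set the wider frame. The deposited Stat5a list holds 14302 peaks at 13 h and 9791 after 2 rounds. Of the merged regions 3378 had a Stat5a peak at both stages, 5765 after 2 rounds alone and 10178 at 13 h alone. In the regions of both stages the median ratio was 1.54 with all reads and 1.47 with distinct starts, and 365 were higher and 1 lower with all reads, 176 and 0 with distinct starts. In the regions of 2 rounds alone it was 4.38 and 3.87, with 2208 and 894 higher. In the regions of 13 h alone it was 0.208 and 0.286, and 1646 were lower with all reads but 25 with distinct starts. Their median at 13 h was 12 reads at 6 starts, and 23.8% had a Stat5b peak at 13 h, against 86.9% of the regions of both stages. In the 24445 regions with no Stat5a peak at either stage it was 1.25 and 1.29, close to the median of all regions with reads, with 786 higher and 92 lower by all reads. The lists themselves chose these groups by the same libraries, so the ratios of the groups found at 1 stage are a description.

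Strand profiles describe shape, which the counts do not use. The windows were centred on Stat5a peaks of 2 rounds for the higher regions and the peaks of both stages. For the peaks of 13 h alone they were centred on Stat5a peaks of 13 h. The authors called these peaks in the same libraries, which favours displacement in the library that supplied them. The distances are therefore a description. In precipitated fragments the plus-strand starts lie to the left of a bound site and the minus-strand starts to the right. Over windows of 300 bp to each side of the peaks, the mean minus-strand start lay 80.3 bp right of the mean plus-strand start for Stat5a after 2 rounds at peaks of both stages, and 74.7 bp at 13 h. In the peaks of the higher regions the distance was 77.5 bp for Stat5a and 90.4 bp for Stat5b after 2 rounds, against 21.1 bp for IgG. The same peaks gave 58.0 bp for Stat5a, 68.0 bp for Stat5b and 2.40 bp for IgG at 13 h, and 58.3 bp for Stat5a at 8 h, so the strands were displaced there at the early stages as well. At the peaks of 13 h alone the 13 h libraries gave 68.8 bp (Stat5a), 52.4 bp (Stat5b) and 20.7 bp (IgG), so the strands were displaced there too. After 2 rounds the same peaks gave 35.9 bp for Stat5a and 55.4 bp for Stat5b. No test was made of these distances.

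**Figure D4:**
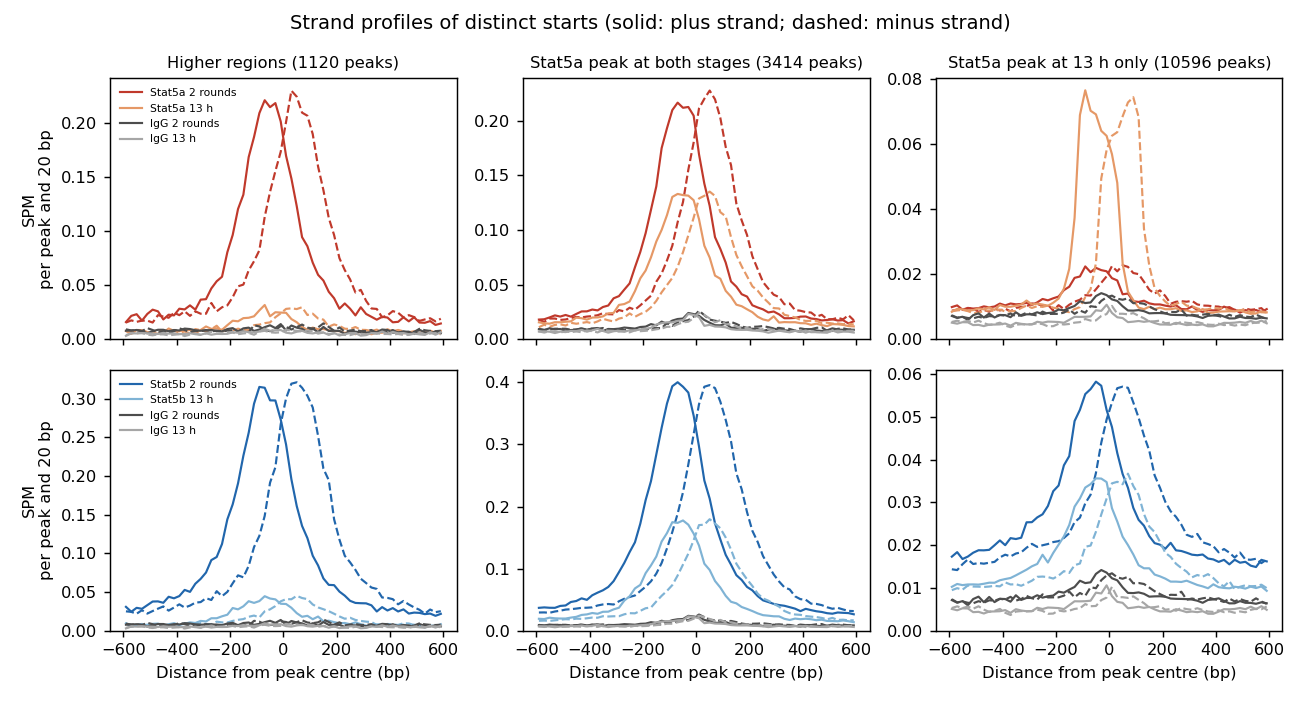
SPM per peak in 20 bp steps (y axis) are drawn against the distance from the peak centre (x axis) for plus-strand (solid) and minus-strand (dashed) starts, with Stat5a in the upper row, Stat5b in the lower row and IgG in grey in both. The columns are peaks of the higher regions, peaks of both stages and peaks of 13 h alone, each panel with its own y scale. The mean starts of the strands lie 77.5 bp apart in the first and 80.3 bp in the second column for Stat5a after 2 rounds, counted within 300 bp of the centre.

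As a share of all reads, the regions with a Stat5a peak at either stage held 4.56% of the Stat5a reads at 13 h and 6.10% after 2 rounds, with Wilson intervals of 4.55% to 4.57% and 6.08% to 6.11%. The IgG libraries had 1.42% and 1.67% there. The Stat5a share was 3.22 times that of IgG at 13 h and 3.65 times after 2 rounds, a ratio of 1.14 between the stages. It was 1.08 with distinct starts. In the 24445 regions with no Stat5a peak at either stage the same ratio was 0.648 with all reads and 1.05 with distinct starts. In the 3378 regions of both stages this ratio was 1.37 with all reads, 1.31 with distinct starts and 0.992 with distinct starts of 25 bp reads.

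The Stat5a ratio showed no steady order by the early level of Stat5b. The regions with a Stat5b peak at 13 h and no dominating start were sorted by their Stat5b level into 5 equal groups. The median distinct-start Stat5a ratio was 1.29, 1.17, 1.12, 1.13 and 1.19 from the lowest to the highest group. With starts summed over each group the ratios were 1.29, 1.39, 1.29, 1.27 and 1.29. The share of higher regions lay between 1.11% and 2.76%. Over all regions, and with Y left out for its single region, the share of higher regions by chromosome lay between 1.47% on chromosome 17 and 4.38% on chromosome 13, where 92 of 2100 regions were higher.

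The size of the change moved with the length of the reads. In the Stat5a libraries 38.0% of reads were 24 bp long at 13 h and 54.5% after 2 rounds, and in the IgG libraries 49.7% and 77.3%, the rest being 25 bp long. In the regions of both stages the median ratio was 1.26 with 25 bp reads alone, with quartiles of 0.775 and 1.95, and 2.47 with 24 bp reads alone, with quartiles of 1.31 and 4.80. Distinct starts gave 1.30 and 2.34. The share over IgG at regions of either stage had a ratio of 0.996 with 25 bp reads and 1.41 with 24 bp reads, and of 0.771 and 1.43 with their distinct starts, so with 25 bp reads it lay below 1. The rule for the higher and lower regions pooled both read lengths, so the direction within each is a description. Of the 1093 higher regions 1024 had a ratio above 1 in the distinct starts of each length, against 14279 of all 43766, and the 25 lower regions had one below 1 in each, against 11507 of all. In the higher regions the median was 6.82 with 25 bp reads and 51.4 with 24 bp reads. These medians use no floor. The upper quartile with 24 bp reads was infinite, from regions without such reads at 13 h. With both lengths together the median Stat5a count there was 4 reads at 13 h, so 51.4 rests on very low counts. At 13 h, 14.3% of the Stat5a starts of 25 bp reads were shared with 24 bp reads once the latter were moved 1 bp upstream, and after 2 rounds 0.6503% were. What the read lengths stand for (a lane, a run or a preparation) is not given in the sources used here, and their part in the change was not tested.

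**Figure D5:**
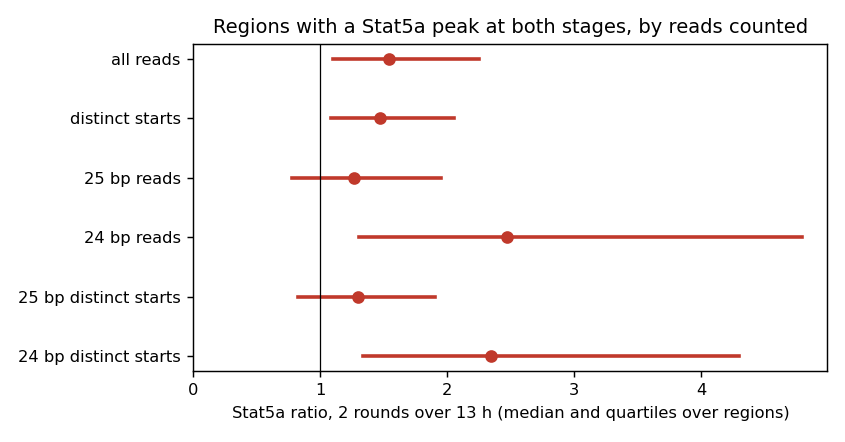
The points are medians and the lines run from the lower to the upper quartile of the Stat5a ratio, 2 rounds over 13 h (x axis), over the 3378 regions with a Stat5a peak at both stages, for 6 ways of counting reads (rows). The median lies between 1.26 and 2.47, and both settings with 24 bp reads alone exceed 2.

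At Il4ra, the receptor gene in the title of the study, the peak region was dominated by reads that share 1 start. The region chr7:125339709-125340091, placed there from background knowledge, was in all 6 peak lists. Stat5a held 4142 reads (498 RPM) at 13 h and 569 (85.6 RPM) after 2 rounds, of which 4060 and 550 began at 1 start. IgG fell there as well, from 56.3 to 15.03 RPM. By distinct starts Stat5a had 20 and 11, a ratio of 0.709 (0.307 to 1.55), an interval that spans 1. A start that holds over 50% of at least 20 reads in any library occurred in 56 of the regions, and none of the 1093 higher or 25 lower regions was among them.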

How the data were processed

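Chromatin immunoprecipitation followed by sequencing (ChIP-seq) gave 9 libraries, 1 each of Stat5a, Stat5b and IgG at 8 h, 13 h and 2 rounds. The files deposited by the authors hold other values than counts: the start, end, mismatch class and strand of every mapped read, and the start and end of every peak, in bp of build mm8, per the names of the deposited files. Which aligner and peak caller made them is not given in the sources used here.

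From these, 5′ ends of reads were counted in the merged regions and scaled to 1000000 reads. The starts of 24 bp reads were moved 1 bp upstream, because in Stat5a at 13 h 14.3% of 25 bp starts recurred there. That share was 0.6503% in Stat5a after 2 rounds. In IgG it was 0.522% at 13 h and 0.635% after 2 rounds. The move was applied to these libraries as well, though their shares do not show it. Calls used exact conditional 95% intervals beyond 2-fold, without a floor. For the printed ratio of a single region a library at 0 was set at a floor of 3 counts. Medians over regions use no floor. Named regions were, per direction, the 10 called in both countings with at least 20 distinct starts and no start holding over 50% of at least 20 reads, ranked by the interval's limit nearest to 1, and the 10 with the most Stat5a starts above IgG. Loci, groups within 50 kb and Il7r were added after values were seen. The regions, gene list and comparisons were chosen with earlier results of these data known.

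Alternatives were distinct starts, either read length alone, other scalings, other region sets, 5′ ends moved 75 bp, thinning to 5787254 reads and a minimum of 10 reads. The interval rule was also tried on simulated counts, drawn without repeated reads and without variation between libraries. Such counts cannot show how the rule treats repeated reads or differences between libraries, so nothing is drawn from them. The peaks' own sequence was not analysed here. Scripts ran under Python 3.11.15 with scipy 1.17.1, pandas 2.3.3, matplotlib 3.10.9 and numpy 2.4.6.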

Additional observations from a re-analysis of the deposited data

Results flagged for a closer look

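In 3 of the 9 named lower regions the Stat5b ratio, 2 rounds over 13 h by distinct starts, lay above 1 while that of Stat5a lay below 0.5. At chr4:57040518-57041856 Stat5a went from 24 to 2 starts, and Stat5b from 21 to 50, a ratio of 2.74 (1.61 to 4.80). This Stat5b interval lies wholly above 1. The region had no Stat5a peak at any stage, and IgG held 14 starts at 13 h. Stat5a over IgG at 13 h was 1.69 (0.842 to 3.54), so the Stat5a level there was not clearly above IgG. At chr11:118048222-118049014 Stat5a went from 22 to 2 starts and Stat5b from 32 to 28, a ratio of 1.01 (0.584 to 1.72). At chr10:13683529-13684170 Stat5a went from 26 to 3 starts and Stat5b from 32 to 34, a ratio of 1.22 (0.731 to 2.04). The last 2 intervals span 1, and with all reads these 2 ratios lay below 1, at 0.918 and 0.974, so their direction depends on the counting. Whether Stat5a and Stat5b differ there was not tested, since each stage has 1 library per antibody.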

How the results depend on the processing

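No paired analysis was possible because each antibody and stage has 1 library. The numbers of regions called higher and lower were 3359 and 1739 with all reads. They were 1120 and 26 with distinct starts, 2170 and 274 with 25 bp reads, 2120 and 2614 with the median ratio set to 1, 2149 and 171 in regions of at least 2 lists, and 771 and 87 in regions with a Stat5b but no Stat5a peak. Intervals beyond 1 gave 9561 and 6291, the IgG libraries 282 and 40, and thinning to equal numbers of reads 2419 and 854. Chosen after seeing the data were distinct starts with their median set to 1 (536 and 66) and 24 bp reads (2589 and 532). Distinct starts of 25 bp (546 and 6) and 24 bp reads (923 and 14) were also chosen then. Fewer regions were tested in the region subsets, and elsewhere the cause was not tested.

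The median ratio of regions with a Stat5a peak at both stages, 1.54, was 1.47, 1.26 and 1.23 with distinct starts, 25 bp reads and the median scaling. It was 1.58 when scaled by reads outside the regions, 1.56 at equal depth and 2.47 with 24 bp reads. Distinct starts gave 1.30 for 25 bp, 2.34 for 24 bp and 1.14 with their median set to 1. The regions of Stat5b lists without a Stat5a peak had 1.25. The share over IgG, with a ratio of 1.14 between the stages, was 1.08 with distinct starts, 1.34 in regions of at least 2 lists, 1.12 in the Stat5b regions and 1.41 with 24 bp reads. It turned to 0.996 with 25 bp reads and to 0.771 with their distinct starts, and was 1.43 with those of 24 bp reads. Of the 1093 higher regions 1016 were still called under the median scaling of all reads and 534 under that of distinct starts. With distinct starts of 25 bp reads alone 322 of the 1093 higher and 1 of the 25 lower regions were still called. Depth limits the calls where regions held few starts, the median region of a 13 h peak alone having 6.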
